A study of Mus musculus with 36 samples.

Results

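Hepatocyte identity is kept by a small set of transcription factors that bind together at the regulatory regions of liver genes. The values below are those of 9 such factors, chosen by name, among the 24421 genes counted in each of 36 mouse liver libraries: the nuclear receptor Hnf4a, the forkhead factors Foxa1, Foxa2 and Foxa3, the basic leucine zipper factors Cebpa and Cebpb, the homeobox factors Prox1 and Onecut1, and the nuclear receptor Nr5a2. These proteins form a cross-regulated network in the adult liver, in which several members bind their own and each other's promoters. FOXA proteins open closed chromatin, HNF4A holds most hepatocyte-specific genes active, and the network is known to be sensitive to diet, fasting and injury. All 9 passed the filter on low counts in every fit.

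All libraries came from male C57BL/6J mice that were 7 weeks old at purchase and ate a choline-deficient, amino acid-defined high-fat diet (CDAHFD) for 12 weeks, a diet that causes steatohepatitis with fibrosis. In the first experiment the mice then ate a high-fat diet that contains choline (HFD) for 2 weeks and received a weekly subcutaneous dose of 4.3 mg/kg Fc (10 mice) or 5 mg/kg Fc(mML1)B3 (10 mice). In the second experiment they ate a standard diet for 10 days and received the same doses of Fc (9 mice) or Fc(mML1)B3 (7 mice) on days 1, 4 and 7. Fc(mML1)B3 is an antibody Fc fragment that carries a grafted Met-binding peptide and activates Met, the receptor of hepatocyte growth factor, and Fc without the peptide was the control. No library of an untreated mouse, or of a mouse that had not eaten the CDAHFD, was analysed here. Diet went together with experiment, dosing schedule and length of treatment, so that these cannot be told apart.

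Libraries held 14949035 to 28466853 counted reads, with a median of 23558194.5. The 7 hepatocyte markers, among them albumin (Alb) and apolipoprotein A-I (Apoa1), took 8.83% to 13.4% of the reads. The numbers in the column names of the files put all Fc libraries of the HFD experiment in 1 running series, Fc(mML1)B3 libraries 1 to 4 in another and libraries 5 to 10 in one more, so that series and protein cannot be told apart there. Under the standard diet, 4 of the 9 Fc libraries shared their series with all 7 Fc(mML1)B3 libraries. In bulk RNA, fewer cells of a type and less RNA per cell cannot be told apart.

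The factors were counted on mm10 over the exons of 1 gene model each. Hnf4a lies on the plus strand of chromosome 2 from 163547188 to 163572907 with 10 exons, and its counted model begins at the downstream of its 2 RefSeq start sites. This is the start used in adult hepatocytes, while the upstream one is known from fetal liver, gut and pancreas. The first exon of the upstream form was not counted, and reads were summed over all exons of the model, so the values do not separate the forms. The other models lie at chr12:57540632-57546121 (Foxa1, minus strand), chr2:148042877-148046969 (Foxa2, minus), chr7:19013283-19023539 (Foxa3, minus), chr7:35119293-35121931 (Cebpa, plus), chr2:167688915-167690432 (Cebpb, plus), chr1:190121777-190170680 (Prox1, minus), chr9:74861921-74889647 (Onecut1, plus) and chr1:136843584-136960448 (Nr5a2, minus). Cebpa and Cebpb have a single exon. Promoters are shown for 4 of the factors called for Fc(mML1)B3 against Fc, and Foxa2, also called under HFD, has 3 windows that are counted but not printed. All 9 factors matched the RefSeq promoter table of GRCm38.p6, with 14 windows in all, of which the 250 bases before the start were searched on both strands for 8 motifs. The motifs were FOXA (TGTTTAC), C/EBP (TTGCGCAA), HNF4 (CAAAGTCCA), ONECUT (ATCGAT), NR5A2 (TCAAGGTCA), the E-box (CACGTG), the TATA box (TATAAA) and the CCAAT box (CCAAT), and the capitals below mark every match.
Hnf4a, downstream start, chr2:163546905-163547154, plus strand: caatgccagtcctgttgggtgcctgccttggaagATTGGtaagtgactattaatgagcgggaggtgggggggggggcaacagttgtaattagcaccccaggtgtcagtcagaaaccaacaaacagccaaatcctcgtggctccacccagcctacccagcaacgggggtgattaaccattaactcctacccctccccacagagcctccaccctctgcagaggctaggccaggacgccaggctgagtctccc
Foxa1, chr12:57546112-57546361, minus strand: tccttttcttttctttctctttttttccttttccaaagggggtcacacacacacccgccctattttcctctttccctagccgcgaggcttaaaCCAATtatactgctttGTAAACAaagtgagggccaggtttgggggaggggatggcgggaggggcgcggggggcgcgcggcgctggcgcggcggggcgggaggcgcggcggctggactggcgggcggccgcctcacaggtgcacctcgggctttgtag
Onecut1, chr9:74861671-74861920, plus strand: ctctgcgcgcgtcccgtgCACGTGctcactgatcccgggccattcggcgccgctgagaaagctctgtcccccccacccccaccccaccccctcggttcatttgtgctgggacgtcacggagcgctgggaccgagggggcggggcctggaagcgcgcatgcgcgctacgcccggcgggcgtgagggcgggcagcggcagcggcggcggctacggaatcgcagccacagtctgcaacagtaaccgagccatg
Nr5a2, upstream start, chr1:136960449-136960698, minus strand: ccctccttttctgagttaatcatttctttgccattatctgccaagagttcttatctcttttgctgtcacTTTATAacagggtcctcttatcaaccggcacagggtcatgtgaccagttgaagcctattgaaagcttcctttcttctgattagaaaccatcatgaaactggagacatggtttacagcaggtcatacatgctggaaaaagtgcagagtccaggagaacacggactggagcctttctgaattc

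The downstream Hnf4a window held a CCAAT box on the minus strand from -216 to -212 relative to the start, and the Nr5a2 window shown held a TATA box on the minus strand from -181 to -176. Foxa1 was the only factor with the FOXA motif before its start, on the minus strand from -141 to -135, against 3.17% of all windows. Onecut1 carried an E-box from -232 to -227, against 6.02% of windows, and had no TATA box or CCAAT box. The TATA box occurred in 5 of the 14 windows and in 12.4% of all windows, and the CCAAT box in 6 of 14 and in 33.8%. Of the TATA matches, those of Foxa3 (-36 to -31) and Cebpa (-30 to -25) were on the plus strand of the window. Those of Foxa2, Prox1 and Nr5a2 were on its minus strand. No member window held the C/EBP, HNF4, ONECUT or NR5A2 letters, which occurred in 0.164%, 0.384%, 0.728% and 0.387% of all windows. Windows of the same gene can share a promoter region, and a match in letters is not a bound site.

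Levels of different genes were compared as reads per 1000 bases of the counted model and 1000000 scaled reads (RPKM). Cebpa, which drives metabolic genes and restrains hepatocyte division, and Hnf4a were the most abundant in every group, far above the rest. In the Fc group under HFD, Cebpa was at 109 ± 14.5 RPKM (SD, n = 10) and Hnf4a at 95.1 ± 11.7 RPKM (SD, n = 10), and Cebpa was the higher in 8 of 10 libraries. In the Fc(mML1)B3 group under HFD, Hnf4a was the higher in 9 of 10 libraries, at 122 ± 25.0 RPKM against 104 ± 17.1 RPKM for Cebpa. The order of these genes was not settled under the standard diet, since Hnf4a was above Cebpa in 5 of 9 Fc libraries and below it in 5 of 7 Fc(mML1)B3 libraries.

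Cebpb, the family member known for acute-phase responses and regeneration, followed these in every group, from 33.5 ± 12.4 RPKM (SD, n = 10) in Fc under HFD to 58.9 ± 16.0 RPKM (SD, n = 7) in Fc(mML1)B3 under the standard diet. Foxa3 came next in every group, at 20.5 to 33.6 RPKM on average. Among the forkhead genes, Foxa3 made up 59.4% ± 8.78 (SD, n = 10) of the summed FOXA RPKM in Fc under HFD, against 28.5% for Foxa2 and 12.1% for Foxa1. The Foxa3 share was 55.9% ± 7.99 (n = 10) in Fc(mML1)B3 under HFD, 62.1% ± 3.29 (n = 9) in Fc and 68.3% ± 6.00 (n = 7) in Fc(mML1)B3 under the standard diet. Foxa3 was thus the largest of the 3 in mean share in all 4 groups.

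The lower ranks differed between diets in Fc mice. Foxa2 and Nr5a2 had neighbouring levels, and Nr5a2 stood below Foxa2 in all 10 Fc libraries under HFD but above it in 7 of 9 Fc libraries under the standard diet. In Fc(mML1)B3 mice Foxa2 was the higher in all 10 libraries under HFD and in 4 of 7 under the standard diet, so no reversal was seen there. Onecut1, also called HNF6 and a factor of hepatocyte and bile duct development, was the lowest under HFD at 1.00 ± 0.511 RPKM (SD, n = 10) in Fc, and was above Foxa1 in 5 of 9 Fc and 4 of 7 Fc(mML1)B3 libraries under the standard diet. The counted models of Prox1, Onecut1 and Nr5a2 cover 49.3%, 44.3% and 65.4% of the exon length that GENCODE M21 gives these genes, so their RPKM may misstate their rank against other genes. Whether the groups differ in the use of exons outside these models was not tested.

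**Figure D1:**
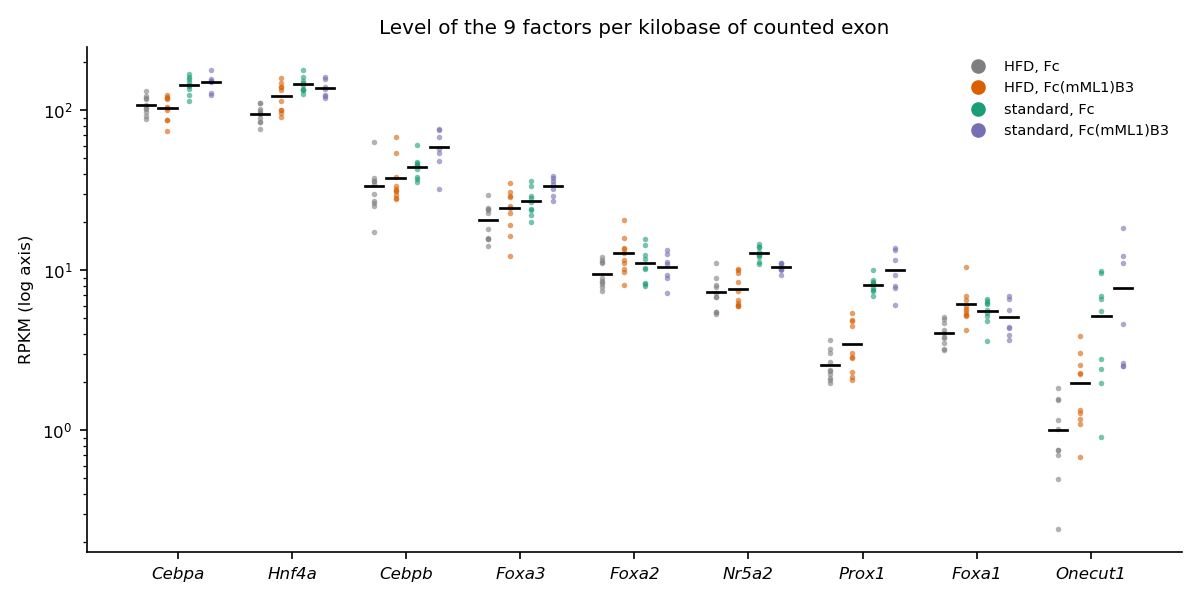
Level of each factor in RPKM (log axis) in the 4 groups, with 1 point per library and a black bar at the group mean. Cebpa and Hnf4a lie together at the top, with group means from 95.1 to 150 RPKM, and Onecut1 spans the widest range within a group.

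The first question was whether activation of Met by Fc(mML1)B3 moved these factors under HFD. With Fc(mML1)B3, 4 of the 9 stood higher and none lower at an adjusted p below 0.05 (the quasi-likelihood test of edgeR, adjusted by Benjamini-Hochberg over 13299 genes), where 14.8% of all genes were called, 8.14% higher and 6.68% lower. At an unadjusted p below 0.05, 5 were higher and 0 lower. The share of all genes at this unadjusted threshold was not taken, so this count cannot be set against it. The 4 were Hnf4a, Foxa1, Foxa2 and Onecut1, and the median log2 fold change of the 9 was 0.37 against -0.01 over all genes. No call reached the limit of a fold change above 2 that the study used in this experiment, which 1.34% of genes passed with an adjusted p below 0.1. Levels below are counts per 1000000 reads after scaling by TMM (CPM). In no factor did the groups stand wholly apart, as 0.922% of genes did.

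Foxa1, a pioneer factor that opens chromatin at liver enhancers, was at 10.2 to 16.3 CPM in the Fc mice under HFD, with a median of 12.5. The Fc(mML1)B3 mice ranged from 13.6 to 33.4 CPM with a median of 18.0. Of these 10 mice, 9 lay above every Fc mouse, and the groups overlapped by a single Fc(mML1)B3 mouse. The log2 fold change was 0.60 (SE 0.13, adjusted p = 0.0028), a rise of 1.51-fold. It remained called when any 1 of the 20 libraries was left out. With the Fc(mML1)B3 libraries 1 to 4 alone it was 0.39 (adjusted p = 0.085), and with libraries 5 to 10 alone 0.73 (adjusted p = 0.0019).

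Hnf4a ranged from 331 to 487 CPM in the Fc mice, with a median of 416, and from 394 to 697 CPM in the Fc(mML1)B3 mice, with a median of 542. Here 6 of 10 Fc(mML1)B3 mice were above every Fc mouse, and the other 4 lay within the Fc range. The log2 fold change was 0.37 (SE 0.11, adjusted p = 0.021), or 1.29-fold, and it was called with any 1 library left out. In contrast to Foxa1, the difference was called with Fc(mML1)B3 libraries 1 to 4 (0.50, adjusted p = 0.012) and not with libraries 5 to 10 (0.28, adjusted p = 0.15). The difference between the series themselves was not tested.

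Foxa2, the forkhead factor with a known part in fasting metabolism and bile acid homeostasis, ranged from 17.6 to 28.7 CPM in Fc (median 20.7) and from 19.2 to 49.0 CPM in Fc(mML1)B3 mice (median 28.9). The groups overlapped, and 5 of 10 Fc(mML1)B3 mice lay above every Fc mouse. The log2 fold change of 0.42 (SE 0.14, adjusted p = 0.038) failed the threshold in 10 of the 20 fits with 1 library left out, these being Fc libraries 1, 2, 3, 4, 7 and 8 and Fc(mML1)B3 libraries 2, 6, 7 and 9 (highest adjusted p = 0.081 without Fc(mML1)B3 library 7). Onecut1 was low, with 8 to 74 reads per library in Fc and 29 to 129 in Fc(mML1)B3 mice, or 0.437 to 3.32 CPM (median 1.61) against 1.24 to 7.11 CPM (median 3.25). The groups overlapped, and 5 of 10 Fc(mML1)B3 mice were above every Fc mouse. Its log2 fold change of 0.95 (SE 0.32, adjusted p = 0.045) failed it in 11 of the 20, without Fc libraries 1, 3, 4, 7, 8, 9 and 10 or Fc(mML1)B3 libraries 1, 6, 7 and 9 (highest adjusted p = 0.10 without Fc(mML1)B3 library 6). Both calls thus lay close to the threshold, and neither was made with Fc(mML1)B3 libraries 1 to 4 alone (Foxa2 0.32, adjusted p = 0.22, and Onecut1 0.75, adjusted p = 0.21). With libraries 5 to 10 alone, Foxa2 was called (0.49, adjusted p = 0.027) and Onecut1 was not (1.083, adjusted p = 0.057). With all libraries, neither was called under upper-quartile scaling or limma-voom (adjusted p = 0.054 and 0.10 for Foxa2, 0.055 and 0.070 for Onecut1).

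The other 5 factors did not pass the test under HFD. Prox1, a homeobox factor that shapes the hepatocyte fate and binds HNF4A and NR5A2 as a co-repressor, had a median of 9.76 CPM in Fc and 12.2 CPM in Fc(mML1)B3 mice, a log2 fold change of 0.44 (95% interval 0.07 to 0.80, adjusted p = 0.096). It was called without Fc(mML1)B3 library 5 (0.50, adjusted p = 0.041) and with libraries 5 to 10 alone (0.58, adjusted p = 0.044). The intervals of the log2 fold change were -0.08 to 0.60 for Foxa3, -0.26 to 0.14 for Cebpa, -0.23 to 0.56 for Cebpb and -0.21 to 0.35 for Nr5a2, each of which includes 0. Prox1 was the most uneven of the Fc(mML1)B3 group apart from Onecut1, with a coefficient of variation of 36.4% against 22.1% in the Fc group, and 4 of its 10 mice lay above every Fc mouse.

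**Figure D2:**
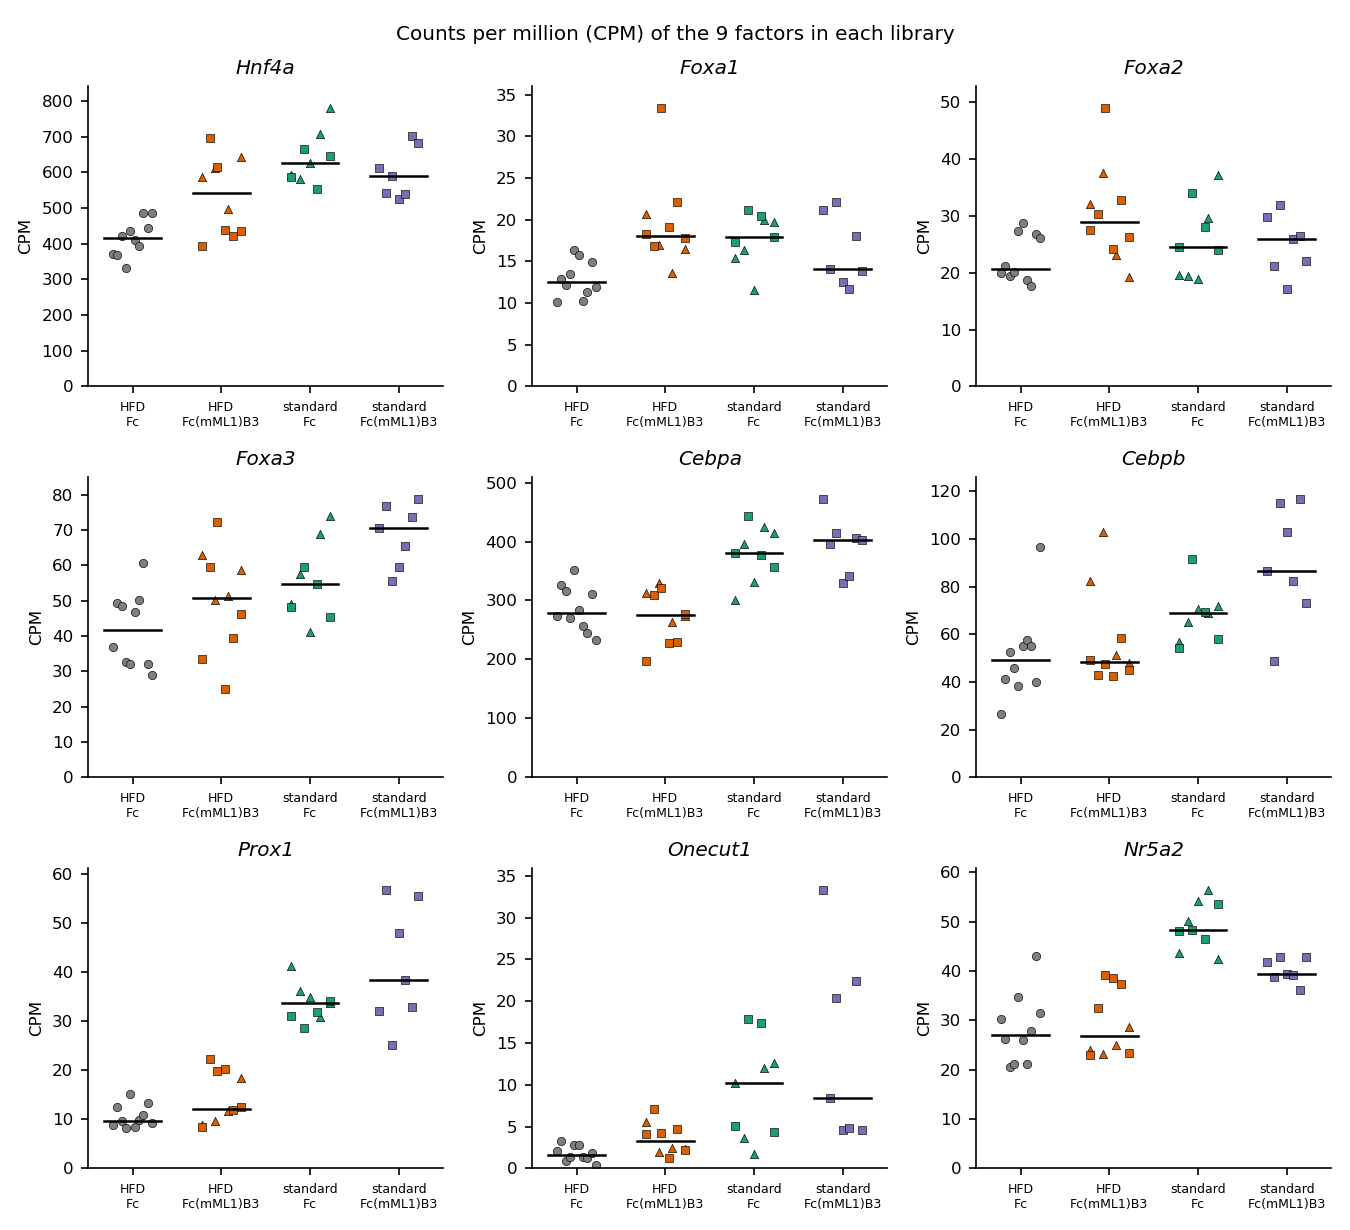
CPM of the 9 factors, with 1 point per library in the 4 groups, a black bar at the group median and 1 linear axis from 0 per gene. Within an experiment, markers give the running series of the column names, with circles for Fc under HFD, triangles for Fc(mML1)B3 libraries 1 to 4 under HFD and Fc libraries 1 to 5 under the standard diet, and squares for the others. Hnf4a and Prox1 of Fc mice do not overlap between the diets.

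The second question was the same under the standard diet. Of the 9 factors, only Nr5a2 was called, and it was lower with Fc(mML1)B3, where 16.1% of 13570 genes were called, 8.56% higher and 7.55% lower. Nr5a2, also named LRH-1, is a nuclear receptor known for its control of bile acid and cholesterol genes. It ranged from 42.4 to 56.4 CPM in the Fc mice with a median of 48.3, and from 36.1 to 42.9 CPM in the Fc(mML1)B3 mice with a median of 39.5. All 7 Fc(mML1)B3 mice were below the Fc median, 5 were below every Fc mouse, and the ranges overlapped only between 42.4 and 42.9 CPM. All 9 factors overlapped between the proteins here, whereas 2.79% of genes did not, 1.69% with every Fc(mML1)B3 library higher. The log2 fold change was -0.30 (SE 0.06, adjusted p = 0.0021), and it was called with any 1 of the 16 libraries left out. Within the running series that both proteins share it was -0.29 (adjusted p = 0.0083). The text and the legend of the study differ in the fold limit for this experiment, and this fall is under either limit. At a fold change above 1.5 and an adjusted p below 0.05, 2.36% of genes passed.

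Foxa3 and Cebpb lay just outside the threshold. Foxa3 ranged from 41.1 to 73.9 CPM in Fc (median 54.7) and from 55.6 to 78.7 CPM in Fc(mML1)B3 mice (median 70.7), with all 7 of these above the Fc median, and its log2 fold change was 0.31 (SE 0.11, adjusted p = 0.054). It was called by DESeq2 (adjusted p = 0.031), by limma-voom (0.35, adjusted p = 0.027), within the shared series (0.40, adjusted p = 0.026), and without Fc library 4 or 5 or Fc(mML1)B3 library 3 or 4. Cebpb ranged from 54.3 to 91.7 CPM in Fc (median 68.9) and from 48.9 to 117 CPM in Fc(mML1)B3 mice (median 86.6), a log2 fold change of 0.41 (SE 0.14, adjusted p = 0.056). In 6 of the 7 Fc(mML1)B3 mice it was above the Fc median, while library 2 was below every Fc mouse. Cebpb was called by DESeq2 (adjusted p = 0.026) and without Fc library 7 or Fc(mML1)B3 library 2 or 7, with an adjusted p of 0.0048 without Fc(mML1)B3 library 2.

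The remaining 6 factors were not called under the standard diet. Hnf4a had medians of 626 CPM in Fc and 588 CPM in Fc(mML1)B3 mice (log2 fold change -0.09, 95% interval -0.25 to 0.07). The intervals were -0.42 to 0.15 for Foxa1, -0.38 to 0.24 for Foxa2 and -0.11 to 0.22 for Cebpa. Prox1 was at 0.29 (0.01 to 0.58, adjusted p = 0.15) and was called without Fc(mML1)B3 library 3 (0.38, adjusted p = 0.032). Onecut1 was the widest, at 0.57 (-0.40 to 1.53), since it ranged from 1.66 to 17.9 CPM in Fc and from 4.58 to 33.3 CPM in Fc(mML1)B3 mice. This interval includes 0.95, the value of Onecut1 under HFD.

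The interaction of diet and protein compares the effects themselves over all 36 libraries. It was called for Foxa1 and Hnf4a, 2 of the 9 factors, both with a lower effect under the standard diet, against 9.06% of 14105 genes called, 4.66% higher and 4.4% lower. For Foxa1 the effect under the standard diet was lower than under HFD by a log2 difference of -0.72 (SE 0.20, adjusted p = 0.017), with effects of 0.60 under HFD and -0.13 under the standard diet. For Hnf4a the difference was -0.44 (SE 0.14, adjusted p = 0.037), with effects of 0.37 and -0.09. Hnf4a lost the call without any 1 of 10 libraries, namely Fc library 2 and Fc(mML1)B3 libraries 4, 6 and 7 under HFD and Fc libraries 4 and 5 and Fc(mML1)B3 libraries 2, 3, 4 and 5 under the standard diet (adjusted p = 0.053 to 0.061), while Foxa1 kept it without any 1 of the 36. The difference was not called for Foxa2 (-0.48, 95% interval -0.90 to -0.05, adjusted p = 0.17) or Nr5a2 (-0.34, -0.69 to 0.0030, adjusted p = 0.24). That Nr5a2 was called under 1 diet only is therefore not shown to be a difference between the diets.

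**Figure D3:**
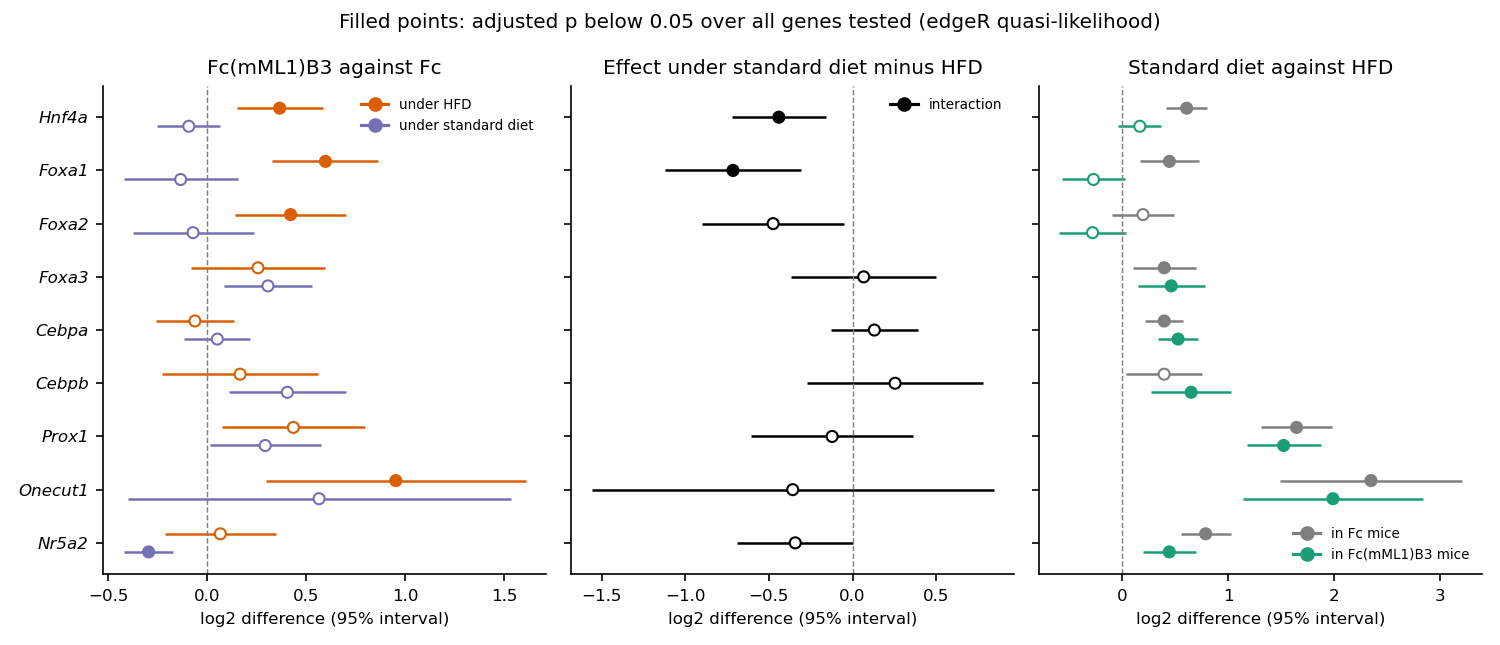
Log2 difference of each factor with its 95% interval for Fc(mML1)B3 against Fc (left), for the standard diet effect minus the HFD effect (middle) and for the standard diet against HFD (right). Filled points passed an adjusted p below 0.05, and the intervals of Foxa1 and Hnf4a lie above 0 under HFD and cross 0 under the standard diet.

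Between the diets, in mice given Fc, 7 of the 9 factors were higher under the standard diet and none was lower, against 47.9% of genes called and 23.3% called higher. The contrast shares its Fc mice with the comparisons above, and it also compares different experiments. The median log2 difference of the 9 was 0.45 against -0.05 over all genes.

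Prox1 and Onecut1 differed most. Prox1 ranged from 8.21 to 15.2 CPM in Fc mice under HFD (median 9.76) and from 28.6 to 41.4 CPM under the standard diet (median 33.8), so the groups did not overlap, as was the case for 9.61% of genes, 7.87% with every library higher. The log2 difference was 1.65 (SE 0.17, adjusted p = 4.0e-10), or 3.13-fold. Onecut1 was at a median of 1.61 CPM under HFD and 10.2 CPM under the standard diet, a log2 difference of 2.35 (SE 0.42, adjusted p = 2.2e-05). Of the 9 Fc mice under the standard diet, 8 were above every Fc mouse under HFD, and library 3 at 1.66 CPM was not. Prox1 is also expressed in lymphatic endothelium, whose markers Pdpn, Flt4 and Reln were not called in any comparison, while Ccl21a was at 0 in every library. The summed CPM of this list was 78.6 to 139.05 in Fc mice under HFD and 103 to 133.2 under the standard diet. Most of this sum was Reln and Flt4, with medians of 82.9 and 27.7 CPM in Fc mice under HFD, beside 2.21 CPM for Pdpn. The part of lymphatic endothelium in the Prox1 values was not tested.

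Hnf4a was at 331 to 487 CPM under HFD and 552 to 779 CPM under the standard diet in Fc mice, without overlap, a log2 difference of 0.61 (SE 0.09, adjusted p = 2.0e-06). Nr5a2 ranged from 20.6 to 43.1 CPM against 42.4 to 56.4 CPM, and 8 of 9 mice under the standard diet were above every HFD mouse (0.79, SE 0.12, adjusted p = 8.6e-07). Smaller differences were called for Foxa1 (0.45, adjusted p = 0.0070), Cebpa (0.40, adjusted p = 3.2e-04) and Foxa3 (0.40, adjusted p = 0.024). Foxa3 lost its call without Fc library 10 under HFD or Fc library 4 or 5 under the standard diet (adjusted p = 0.052 to 0.060). Foxa2 (0.20, 95% interval -0.09 to 0.49) and Cebpb (0.40, 0.04 to 0.76, adjusted p = 0.061) were not called. Cebpb was called without Fc library 10 under HFD (0.55, adjusted p = 0.0060), and also without Fc(mML1)B3 library 2 under HFD, Fc library 6 or Fc(mML1)B3 library 2 under the standard diet.

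In mice given Fc(mML1)B3, 6 of the 9 were higher under the standard diet, against 38.5% of genes called and 20.7% called higher. Prox1 was at 8.50 to 22.3 CPM under HFD and 25.2 to 56.8 CPM under the standard diet, without overlap, at a log2 difference of 1.52 (SE 0.17, adjusted p = 7.7e-09). Cebpa did not overlap either, with 197 to 330 CPM against 330.4 to 472 CPM (0.53, SE 0.09, adjusted p = 2.4e-05), while 9.77% of genes stood apart in this way, 7.27% with every library higher. Onecut1 (1.99), Cebpb (0.65), Foxa3 (0.46) and Nr5a2 (0.45) were also called. Hnf4a, at 0.17 (95% interval -0.04 to 0.37), Foxa1, at -0.27 (-0.56 to 0.03), and Foxa2, at -0.28 (-0.59 to 0.03), were not called in these mice.

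Markers of other liver cells also differed between the diets, in contrasts that called 47.9% of all genes in Fc mice (24.6% lower) and 38.5% in Fc(mML1)B3 mice (17.9% lower). In Fc mice, 6 of 8 stellate cell markers, 3 of 7 cholangiocyte markers, 5 of 6 lymphocyte markers, 2 of 7 macrophage markers (Cd68 and Lyz2) and 2 of 4 tested neutrophil markers (Retnlg and Csf3r) were lower under the standard diet, and 2 of 7 hepatocyte markers and 1 of 7 endothelial markers (Kdr) were higher. In Fc(mML1)B3 mice, 5 of 8 stellate cell (6 by DESeq2), 2 of 7 cholangiocyte, 1 of 7 macrophage and 1 of 4 neutrophil markers were lower, 2 of 7 hepatocyte markers were higher, and 1 endothelial and 1 lymphocyte marker were called in each direction by edgeR. In Fc mice the summed stellate list had a median of 1193 CPM under HFD and 729 CPM under the standard diet, with ranges of 794 to 1644 and 666 to 1077. In Fc(mML1)B3 mice its medians were 942 and 724 CPM. The summed cholangiocyte list had medians of 583 and 328 CPM in Fc mice, with ranges of 172 to 867 and 231 to 511. In Fc(mML1)B3 mice its median was higher under the standard diet, at 319 CPM under HFD and 355 CPM under the standard diet. Most of the cholangiocyte sum was Spp1, with medians under HFD and the standard diet of 504 and 281 CPM in Fc mice. In Fc(mML1)B3 mice the Spp1 medians were 266 and 303 CPM. Krt7 and Krt19 were at medians of 4.99 and 8.63 CPM in Fc mice under HFD. The hepatocyte list in Fc mice was at 78358 to 139720 CPM under HFD and 108870 to 139650 CPM under the standard diet. Fc(mML1)B3 against Fc called 14.8% of all genes under HFD (6.68% lower) and 16.1% under the standard diet (7.55% lower). Under HFD, 3 of 4 tested neutrophil markers (S100a8, S100a9 and Csf3r) and 1 of 6 lymphocyte markers (Ms4a1) were lower. The summed neutrophil list was at 13.2 to 67.2 CPM in Fc and 11.2 to 20.0 CPM in Fc(mML1)B3 mice. None of the hepatocyte, cholangiocyte, stellate cell, macrophage or endothelial markers were called under HFD. Their summed lists overlapped in range between Fc and Fc(mML1)B3 mice. The medians of these groups were 583 and 319 CPM for cholangiocytes, 1193 and 942 CPM for stellate cells and 1021 and 911 CPM for macrophages. They were 252 and 278 CPM for endothelium and 103340 and 120970 CPM for hepatocytes. Of these lists, Pdgfrb and Des (stellate) and Sox9 (cholangiocyte) were lower and Cps1 (hepatocyte) higher under the standard diet. There the summed stellate list had medians of 729 CPM in Fc and 724 CPM in Fc(mML1)B3 mice (ranges 666 to 1077 and 536 to 768). The summed cholangiocyte list had medians of 328 and 355 CPM (ranges 231 to 511 and 182 to 416). The part of these cells in the values of the 9 factors was not tested.

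Core clock genes also differed between the protein groups, 10 of 11 tested under HFD and 8 of 12 under the standard diet, beside 14.8% and 16.1% of all genes. Under HFD, Arntl, which encodes BMAL1, was at 3.98 (SE 0.29) and Dbp, an output gene of the clock, at -3.31 (SE 0.33). Under the standard diet Arntl was at -1.05 (SE 0.27), and the interaction was called for 11 of 12, beside 9.06% of all genes. The part of the clock, or of the time of day at sampling, in the factors' values was not tested.

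The ratio of Cebpb to Cebpa reads within a library does not depend on scaling, and a shift towards CEBPB is known from regenerating liver. Under HFD the mean log2 ratio was -2.56 ± 0.62 (SD, n = 10) in Fc and -2.31 ± 0.39 (SD, n = 10) in Fc(mML1)B3 mice, a difference of 0.25 (2-sided permutation test with 100000 resamples, p = 0.29). Without Fc library 10, which had the highest ratio at -1.27, it was 0.39 (permutation p = 0.059), and with Fc(mML1)B3 libraries 1 to 4 and 5 to 10 alone it was 0.44 and 0.13. Under the standard diet it was -2.50 ± 0.19 (SD, n = 9) and -2.19 ± 0.48 (SD, n = 7), a difference of 0.32 (2-sided exact permutation test, p = 0.093, and 0.19 after adjustment over the 2 tests). Neither test passed 0.05. With each library left out in turn, the difference under the standard diet ranged from 0.23 to 0.46. It passed 0.05 only without Fc(mML1)B3 library 2, whose ratio of -3.02 was the lowest of its group, so that this value is no independent support for a difference. Within the shared series it was 0.35 (exact permutation p = 0.21).

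Whether the factors varied together between mice of the same group was asked with log2 CPM minus the group mean over the 36 libraries. Of 36 pairs, 11 passed an adjusted p below 0.05 (permutation of libraries within groups, 100000 resamples), 10 of them positive, and the same 11 passed with Spearman's rho. The weakest of the 11 had an absolute r of 0.46, and of all pairs of the 14105 tested genes 9.17% were at least as far from 0, 4.94% with a positive and 4.23% with a negative sign. Foxa1 and Foxa2 were the closest pair (r = 0.77, rho = 0.78, p = 1e-05 for each, the smallest these permutations can give, adjusted p = 0.00036). Without the 2 libraries farthest from the median of Foxa1 the correlation was 0.70, and it was 0.77 within the HFD libraries and 0.78 within the standard diet libraries. Mouse 7 of the Fc(mML1)B3 group under HFD, with 33.4 CPM of Foxa1 and 49.0 CPM of Foxa2, was the highest of all 36 in both.

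Onecut1 followed both of these genes. It correlated with Foxa1 (r = 0.65, rho = 0.66, permutation p = 6e-05 and 9e-05) and with Foxa2 (r = 0.56, rho = 0.57, permutation p = 0.00062 and 0.00086). Within the standard diet libraries the correlation was 0.89 with Foxa1 and 0.75 with Foxa2. Within the HFD libraries, where Onecut1 had 8 to 129 reads, it was 0.36 and 0.35. Without the 2 farthest libraries the correlations over all libraries were 0.66 with Foxa1 and 0.58 with Foxa2. These libraries were chosen by Foxa1 or Foxa2 and not by Onecut1. In the standard diet experiment the mice with Onecut1 at or above 10 CPM, which were Fc libraries 1, 4, 5, 7 and 8 and Fc(mML1)B3 libraries 1, 3 and 6, came from both proteins and from both running series. Cebpa correlated with 5 others, namely Foxa2 (r = 0.52), Hnf4a (0.51), Foxa3 (0.50), Foxa1 (0.49) and Onecut1 (0.46), with rho from 0.47 to 0.55 and permutation p from 0.00125 to 0.00751, and r of 0.39 to 0.59 without the 2 farthest libraries. For these pairs r was 0.32 to 0.50 within the HFD libraries and 0.52 to 0.77 within the standard diet libraries. Hnf4a and Foxa3 had an r of 0.55 (rho = 0.52, permutation p = 0.0024 and 0.0032, and 0.49 without the 2 farthest).

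The single negative pair was Cebpb and Prox1 (r = -0.54, rho = -0.57, permutation p = 0.0020 and 0.00098). It was -0.53 without the 2 farthest libraries, -0.47 within the HFD libraries and -0.69 within the standard diet libraries. Prox1 and Nr5a2 had an r of 0.50 (rho = 0.45, permutation p = 0.0055 and 0.013), which was 0.66 within the HFD libraries, -0.13 within the standard diet libraries and 0.45 without the 2 farthest, and the difference between these values was not tested. Each mouse gave 1 library, so that variation between mice and between library preparations cannot be told apart.

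**Figure D4:**
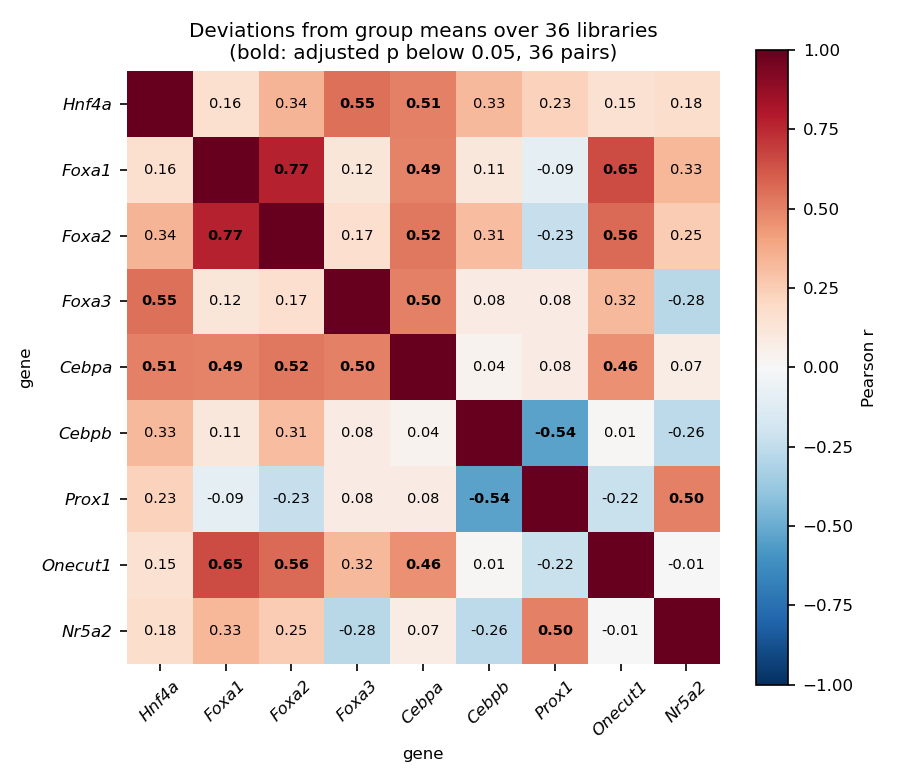
Pearson r between the 9 factors over 36 libraries after the group means were taken off, with bold values where the adjusted permutation p was below 0.05 over 36 pairs. Foxa1, Foxa2 and Onecut1 form the block of highest values, and Cebpb and Prox1 are the only negative pair that passed.

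**Figure D5:**
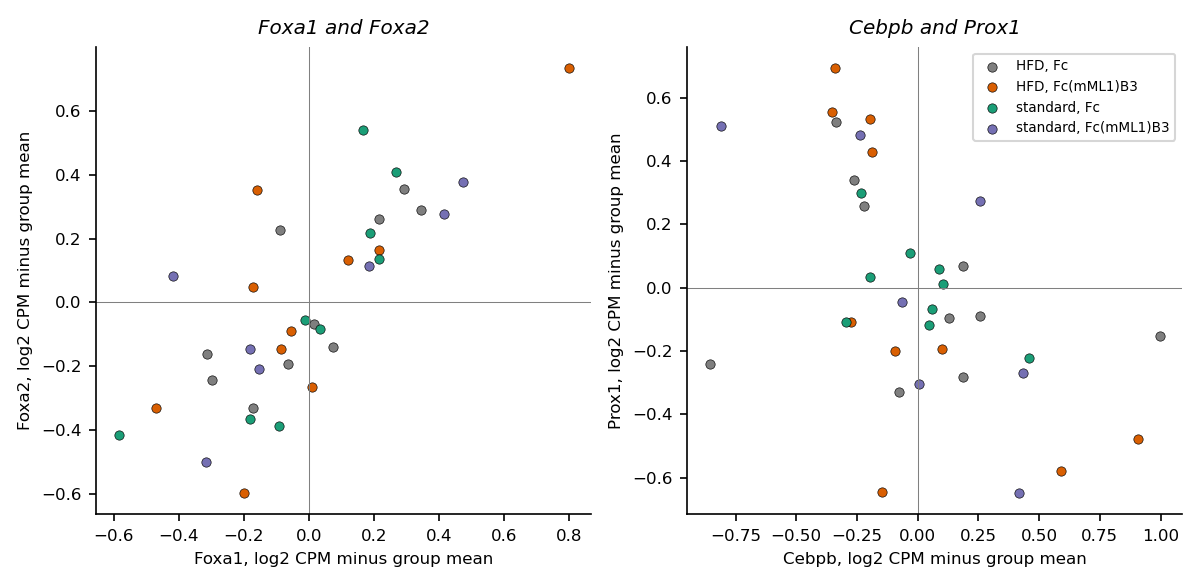
Deviation of each library from its group mean in log2 CPM for Foxa1 against Foxa2 (left, r = 0.77) and Cebpb against Prox1 (right, r = -0.54), with 1 point per library and a colour per group. All groups contribute points along both trends.

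Across all tested genes, the genes whose deviations were most like those of a factor were found by r over the 36 libraries, as a description without a test. Nr5a2 had the closest companions, Hook1 and Slc10a5 (r = 0.90 for each). For Cebpa they were Usf2 (0.84) and Clcn2 (0.81), for Onecut1 B4galt1 (0.81) and Kdm5b (0.78), and for Foxa2 Cish (0.81) and Arid5b (0.77). Foxa1 had Foxa2 first and Arid5b second (0.71), so that Arid5b followed both forkhead genes. Hnf4a was closest to Wbp1l and Sidt2 (0.76 for each), Prox1 to Gzf1 (0.79) and Rbbp5 (0.72), Cebpb to Plk3 (0.70) and Slc38a2 (0.69), and Foxa3 to Chmp1a (0.68) and 1700001L05Rik (0.67).

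The wider network was described with 22 other liver-enriched regulators. Under HFD, 2 of the 22 rose with Fc(mML1)B3 and 1 fell, with a list median of 0.08, a share near the 14.8% of all genes called. Gata4, which hepatocytes share with sinusoidal endothelium, was higher (0.38, adjusted p = 0.0030), and Nr2f2, or COUP-TFII, was lower (-0.32, adjusted p = 0.040). In the standard diet experiment 2 were higher and 1 lower, beside 16.1% of all genes called, and these were the bile acid receptor Nr1h4 (0.57, adjusted p = 1.2e-06), the xenobiotic receptor Nr1i3 (0.62, adjusted p = 5.2e-05) and the bZIP factor Atf5 (-0.74, adjusted p = 6.3e-07). The interaction was called for Nr1h4 alone (0.54, adjusted p = 0.018), beside 9.06% of all genes. Between the diets, 7 of the 22 were higher and 6 lower in Fc mice, and 5 were higher and 3 lower in Fc(mML1)B3 mice, where 47.9% and 38.5% of all genes were called.

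Of 25 hepatocyte products whose genes these factors are known to bind, none was called for Fc(mML1)B3 against Fc under HFD by edgeR, which called 14.8% of all genes, or by DESeq2. The list median was 0.15. At an unadjusted p below 0.05 by edgeR, 3 were higher and 0 lower, and the share of all genes at this threshold was not taken. In the standard diet experiment 3 were higher and 2 lower by edgeR, where 16.1% of all genes were called, and 5 were higher and 2 lower by DESeq2. Cyp7a1, the rate-limiting enzyme of bile acid synthesis and a known target of NR5A2 and HNF4A, was higher (1.72, SE 0.19, adjusted p = 3.9e-06) in the same group in which Nr5a2 was lower. Cyp8b1, another product of the list, was not called (-0.15, adjusted p = 0.66), and a link of these values to Nr5a2 was not tested. Hpd of tyrosine breakdown (0.24) and Cps1 of the urea cycle (0.19) were higher, and Igfbp1, a secreted IGF-binding protein (-1.499, adjusted p = 0.0036), and fibrinogen Fgb (-0.43) were lower. The interaction was called for Cyp7a1 (2.03, adjusted p = 4.3e-05) and Igfbp1 (-1.96, adjusted p = 0.011), a share near the 9.06% of all genes. Between the diets, 3 products were higher and 2 lower under the standard diet in Fc mice, and 4 and 4 in Fc(mML1)B3 mice, smaller shares than the 47.9% and 38.5% of all genes called, among them Apob (0.63 and 0.38) and Cps1 (0.79 and 0.70), which were higher in both.

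Some counts can hold reads of a neighbour, since strand was ignored in counting. GENCODE M21 places exons of Tmem189 over 312 bases (20.6%) of the Cebpb model, of Gm20649 over 342 bases (18.8%) of Onecut1, of Prox1os over 3.2% of Prox1 and of Gm45091 over 51 bases (1.9%) of Cebpa. Reads in these stretches cannot be told apart by gene.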

How the data were processed

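Total liver RNA was sequenced as paired reads, 1 library per mouse. Per the labels and the methods, the authors trimmed reads with fastp, removed ribosomal RNA with Bowtie2 2.4.5, aligned to mm10 with STAR 2.7.10a and counted reads per gene with featureCounts (Subread 2.0.3), each end by itself, without strand and without reads of several alignments. The deposited values are these raw counts, with 67.9% to 74.4% of low counts even. Groups and mouse numbers came from the sample titles. Depth was 14949035 to 28466853 reads. At these totals Onecut1 rests on 8 to 804 reads a library, so counting error is largest for this gene.

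From the counts, edgeR 4.0.16 (R 4.3.3) was run with TMM and filterByExpr, first tested on simulated data, within each diet and, for the interaction and diet contrasts, over all 36 libraries. CPM and RPKM used TMM totals over 36 libraries, and 0.5 CPM was added before logs for correlations (Python 3.11.15, SciPy 1.17.1). No library pair of a group was a duplicate (147 pairs, chi-square per degree of freedom at least 6.3). Alternatives were DESeq2 1.42.0, limma-voom (limma 3.58.1), upper-quartile scaling, no filter, other thresholds, a replicate block, running series and each library left out. The factors and lists were chosen with earlier results of these data known. The genes named are the 9 factors, the 2 likest genes of each, genes that overlap their exons, and from each list and fit at most 4 called genes with the smallest p or those with a textbook link. Cps1, the fifth called product, and the uncalled Cyp8b1, Afp, Lin28b, Pdpn, Flt4, Reln and Ccl21a were added after their values were seen. Promoter sequences are from RefSeq. The values of 1 called regulator are not reported here, and 1 more planned motif was left out.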

Additional observations from a re-analysis of the deposited data

Results flagged for a closer look

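Of 36 combinations of factor and group, 3 held a library far from the rest by Dixon's test at the 95% level, and chance flags about 1 in 20. Foxa1 was at 33.4 CPM in Fc(mML1)B3 mouse 7 under HFD, where the next mouse was at 22.1 CPM, and the call of Foxa1 held without this mouse. Cebpb was at 96.6 CPM in Fc mouse 10 under HFD, above the next at 57.7 CPM, and the diet difference of Cebpb in Fc mice, 0.40 with all mice, was called at 0.55 (adjusted p = 0.0060) without it. Cebpb was at 91.7 CPM in Fc mouse 7 under the standard diet, above the next at 71.8 CPM, and the effect of Fc(mML1)B3 was called at 0.47 (adjusted p = 0.025) without it.

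Between the diets, the response to Fc(mML1)B3 was unequal for Hnf4a (interaction of -0.44) and Foxa1 (interaction of -0.72) in edgeR's test over all 36 libraries. Diet, experiment, dosing and running series cannot be told apart in this difference.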

How the results depend on the processing

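Under HFD, where 4 factors were called, 4 were called by DESeq2, 5 at an adjusted p below 0.1, 3 with no filter (Onecut1 at an adjusted p of 0.055), and 2 with upper-quartile normalization, with limma-voom or with the replicate block. With Fc(mML1)B3 libraries 1 to 4 alone 1 was called, with libraries 5 to 10 alone 3, and 0 at the thresholds of the study. Leaving out 1 library gave 2 to 5. Under the standard diet, where 1 was called, 3 were called by DESeq2 or at an adjusted p below 0.1, 2 by limma-voom or within the shared series, 0 at the thresholds of the study (a fold change above 1.5), and 1 to 3 with 1 library left out. For the interaction, 2 were called, 1 to 2 with 1 library left out, and 0 with the replicate block (adjusted p = 0.066 for Foxa1 and 0.068 for Hnf4a). The cause of these changes was not tested. The diet counts stayed within 6 to 8 in Fc mice and 5 to 7 in Fc(mML1)B3 mice. With upper-quartile scaling Foxa3 lost its call in Fc mice (0.31, adjusted p = 0.070) and Foxa1 was called lower in Fc(mML1)B3 mice (-0.35, adjusted p = 0.044), while the median of all genes stood at -0.13 and -0.11.

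Signs turned only for values that were not called. With Fc(mML1)B3 libraries 1 to 4 under HFD, Cebpa was at 0.050 and Nr5a2 at -0.16, and with libraries 5 to 10 Cebpb was at -0.085. Foxa2 under the standard diet was at 0.0062 without Fc library 5 and 0.0027 without Fc(mML1)B3 library 4, in a range of -0.144 to 0.0062, and the Foxa3 interaction at -0.023 without Fc library 8 and -0.030 without Fc(mML1)B3 library 8 under HFD, in a range of -0.030 to 0.129. The difference in log2 Cebpb to Cebpa ratio ranged from 0.16 to 0.39 under HFD and from 0.23 to 0.46 under the standard diet with 1 library left out. In a check added after seeing the data, 11 of the 11 correlated pairs kept their sign within the HFD libraries and 10 within the standard diet libraries.

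The mouse numbers of the titles did not pair the groups. Deviations of same-numbered mice correlated at -0.62 to 0.26 under HFD, with 1 of 10 pairs over 0.1, and at -0.16 to 0.0010 under the standard diet, and no mouse correlated best with its own number. With the replicate block, 2 factors were called under HFD (Foxa1 and Onecut1, with Hnf4a at an adjusted p of 0.098), 1 under the standard diet, 0 for the interaction, 8 for the diets in Fc mice (Cebpb gained, adjusted p = 0.044) and 5 in Fc(mML1)B3 mice (Foxa3 lost, adjusted p = 0.053). Depth limits Onecut1 most, with as few as 8 reads in a library.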

Other observations

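Of 8 genes known from the fetal liver, 6 were tested under HFD and H19, an imprinted RNA, was the only one called for Fc(mML1)B3 against Fc (-5.14, SE 1.11, adjusted p = 0.0027), beside 14.8% of all genes. H19 ranged from 0.692 to 215 CPM in Fc mice with a median of 1.87 and a mean of 39.2 CPM, and from 0.637 to 1.96 CPM in Fc(mML1)B3 mice with a median of 0.960. Afp, the fetal albumin-like protein, was not called in any comparison, and Lin28b was at 0 in every library.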
